A study of Mus musculus with 18 samples.

Results

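The 9 genes described here are the Egr zinc-finger factors Egr1, Egr2, Egr3 and Egr4, the co-repressors Nab1 and Nab2, and the Nr4a nuclear receptors Nr4a1, Nr4a2 and Nr4a3. They were taken by gene name from the merged annotation, 9 of its 23212 gene names. They were measured by RNA-seq in fibroblasts that differ in the RelA protein they carry. Of these, 8 reached 1 FPKM in 2 or more libraries and were tested, and Egr4 had no assembled transcript in any of the 18 libraries. FPKM, fragments per kilobase of transcript per 1000000 mapped fragments, is a level per length. The FPKM of all transcripts assembled for a gene in a library were added up, and a gene without one was listed at 0, which does not mean that it had no reads.

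All cells were immortalized mouse embryonic fibroblasts without their own rela gene, into which 1 form of RelA was put back with a retroviral vector (pBABE-puro). RelA(TA2) carries changes in its transactivation domain that disrupt its contact with the TAZ1 domain of the co-activators CBP and p300. RelA(Ser276Ala) has alanine in place of the serine whose phosphorylation is needed to hold their KIX domain, and the study described less RelA protein in this line than in the RelA(wt) line. RelA(wt) is the unchanged protein. Each line was taken unstimulated (0 h) and after 1 h or 2 h with TNFα at 5 ng/ml, with 2 libraries per condition and 9 conditions. The 2 libraries are independent replicates according to the methods. The sources used here do not say whether a line was a clone or a pool, so p-values measure the spread between libraries of a line and not between lines made anew.

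Rela itself was listed at 315 to 366 FPKM in RelA(TA2) cells, 174 to 211 FPKM in RelA(Ser276Ala) cells and 156 to 187 FPKM in RelA(wt) cells. The part of this difference in the results for RelA(TA2) cells was not tested. All 8 fibroblast markers on the list used were assembled, with a summed level of 3247 to 4372 FPKM. Of the 15 markers of other cell types, 10 had no assembled transcript in any library, among them both T-cell markers (Cd3e and Cd4), both of epithelium (Epcam and Cdh1), 1 of 2 of endothelium (Pecam1) and 2 of 5 of macrophages (Emr1 and Ptprc). The other 5 were assembled, Cdh5 of endothelium at 1.12 to 12.3 FPKM, Cd68, Csf1r and Lyz2 of macrophages at 4.23 to 16.9, 2.38 to 16.1 and 0 to 2.51 FPKM, and Des of muscle at 1.71 to 4.76 FPKM. In such bulk RNA, fewer responding cells and less RNA per cell cannot be told apart.

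Egr factors bind GC-rich DNA through 3 zinc fingers and are among the first genes switched on after a growth or stress signal, through serum response factor at CArG boxes and through CREB-family factors at cyclic AMP response elements. Nab1 and Nab2 bind some of the Egr proteins, Egr1 among them, and repress the targets of these. Nab2 is known as an Egr target itself, so that the pair is described as a feedback loop. The Nr4a proteins (Nur77, Nurr1 and Nor1) are orphan nuclear receptors that act without a known natural ligand and are therefore governed mainly by how much of them is made.

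The stretches before the gene starts are shown because genes of this class are known from other work to be induced through such elements. RefSeq windows (build GRCm38.p6) were at hand for 7 of the 9 members, and not for Egr1 and Egr3. The 250 bases before the start were searched on both strands for the CRE half-site TGACG, the element TGCGTCA, which holds a half-site on its other strand, the Egr motif GCGNGGGCG, the CArG box and the κB site. Over 32817 mouse promoter windows of this length, 17.7% held TGACG, 1.74% held TGCGTCA, 1.47% a CArG box, 3.9% a κB site and 4.7% the Egr motif. Capitals mark the matches in the sequences below, which run 5′ to 3′ in the direction of the gene. Nr4a1 is at chr15:101266596-101266845 on the plus strand, Nr4a2 at chr2:57124004-57124253 on the minus strand, Egr2 at chr10:67537619-67537868 on the plus strand and Egr4 at chr6:85513590-85513839 on the minus strand.
Nr4a1: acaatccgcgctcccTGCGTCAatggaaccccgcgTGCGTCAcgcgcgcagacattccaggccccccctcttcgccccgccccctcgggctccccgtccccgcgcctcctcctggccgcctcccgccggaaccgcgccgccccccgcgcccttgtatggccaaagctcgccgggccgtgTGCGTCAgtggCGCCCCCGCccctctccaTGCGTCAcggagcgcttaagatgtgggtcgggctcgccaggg
Nr4a2: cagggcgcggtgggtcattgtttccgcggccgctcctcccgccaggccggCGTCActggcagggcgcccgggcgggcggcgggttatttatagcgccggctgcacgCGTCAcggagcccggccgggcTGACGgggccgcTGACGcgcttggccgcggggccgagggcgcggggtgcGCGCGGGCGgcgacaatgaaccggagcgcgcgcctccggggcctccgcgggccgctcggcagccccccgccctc
Egr2: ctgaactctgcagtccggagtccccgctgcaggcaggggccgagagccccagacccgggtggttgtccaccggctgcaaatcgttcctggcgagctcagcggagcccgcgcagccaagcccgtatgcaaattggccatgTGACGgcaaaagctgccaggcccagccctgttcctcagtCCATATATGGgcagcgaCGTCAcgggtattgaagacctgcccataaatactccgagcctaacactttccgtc
Egr4: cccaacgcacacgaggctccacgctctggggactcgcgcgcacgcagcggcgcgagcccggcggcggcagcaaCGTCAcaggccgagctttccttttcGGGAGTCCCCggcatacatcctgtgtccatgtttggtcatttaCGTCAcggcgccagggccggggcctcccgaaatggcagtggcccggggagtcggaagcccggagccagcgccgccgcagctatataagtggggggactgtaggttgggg

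Nr4a1 held TGCGTCA 4 times, beginning 235, 215, 71 and 42 bases before its start, and 1 Egr motif 60 bases before it. Nr4a2 held 4 CRE half-sites and 1 Egr motif. Egr2 held a CArG box 72 bases before its start and 2 half-sites, and Egr4, the member that was not assembled, held 2 half-sites and a κB site 152 bases before its start. Nr4a3 held 4 half-sites, Nab1 held 3 Egr motifs, 1 κB site and 1 TGCGTCA, and Nab2 held none of the 5 motifs. The RefSeq starts of Nr4a3 and Egr4 differ from those of the merged annotation, and the windows of Nr4a3, Nab1 and Nab2 overlap annotated exons. A match in a window is a description of its letters and not a measured binding site.

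Egr1 and Egr3 rose at 1 h of TNFα in every line and fell again at 2 h, and Nr4a2 rose at 2 h in every line. Nab2 was higher at 2 h than at 1 h in every line, and lower at 1 h than at 0 h in RelA(Ser276Ala) and RelA(wt) cells. At 1 h against 0 h, 2 of the 8 tested members were called in RelA(TA2) cells, against 2.00% of all 12386 tested genes (limma on log2(FPKM + 0.5), adjusted p under 0.05). RelA(Ser276Ala) cells had 4 of 8 called, against 1.51% of all tested genes, and in RelA(wt) cells 4 of 8, against 1.57%. The called members were Egr1 and Egr3 in every line, and Egr2 and Nab2 in RelA(Ser276Ala) and RelA(wt) cells. Between 2 h and 0 h, 3 of 8 were called in RelA(TA2) cells, 1 in RelA(Ser276Ala) cells and 2 in RelA(wt) cells, against 4.04%, 0.985% and 1.83% of all tested genes. Between 2 h and 1 h, 4, 5 and 4 of 8 were called in the same order of lines, against 2.75%, 2.01% and 4.17%. These counts depend on the measure. With fragment counts in place of FPKM, described below, 6, 4 and 5 of 8 were called at 1 h against 0 h in the same order. They were set against 10.3%, 6.08% and 6.87% of all genes, and included Egr2 and Nr4a1 in every line.

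**Figure D1:**
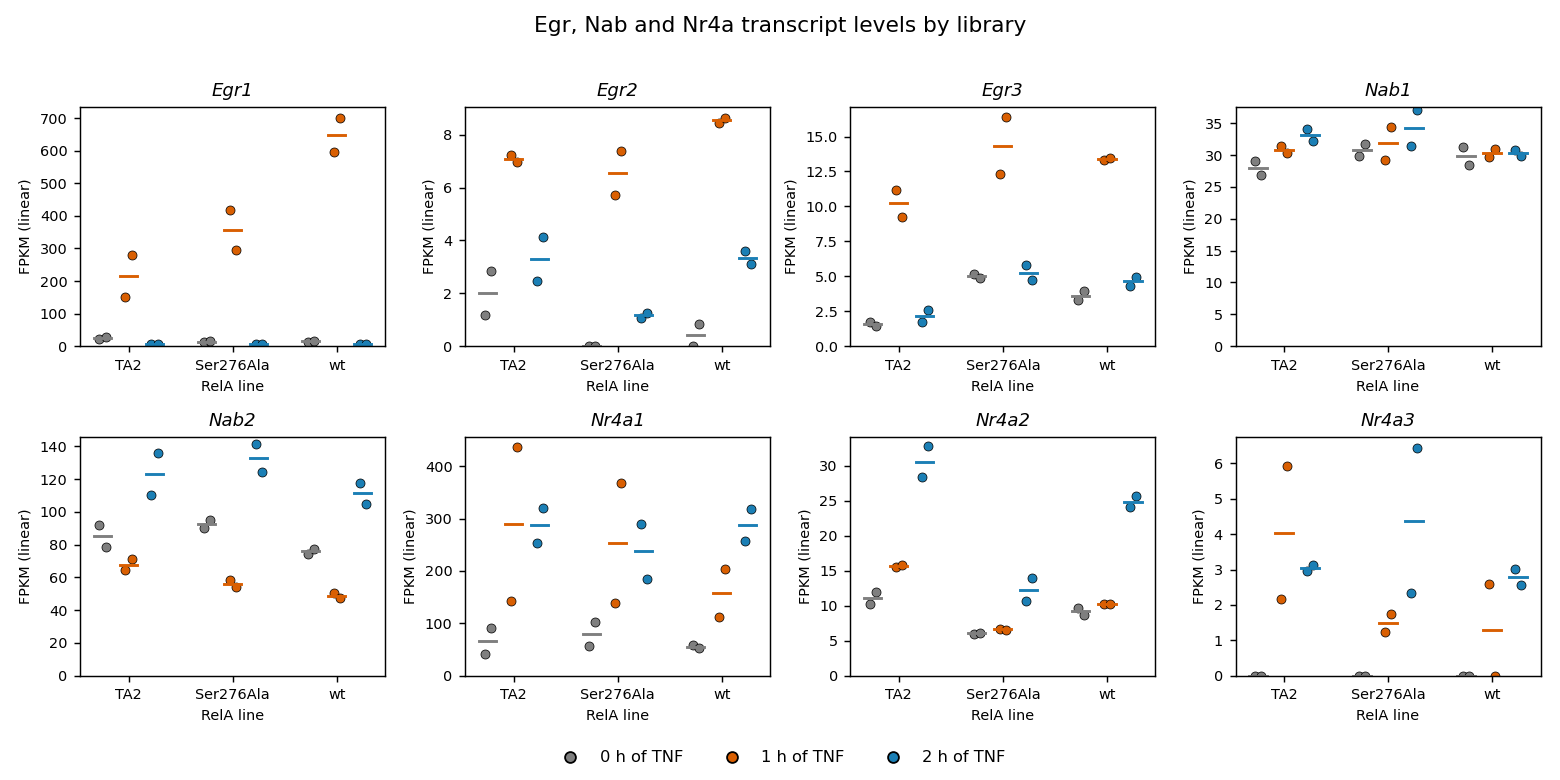
FPKM (linear axis from 0) of the 8 assembled members in each of the 18 libraries, by RelA line and time of TNFα. Points are libraries and bars the mean of the 2 libraries. Egr1 at 1 h lies between 150.0 and 279 FPKM in RelA(TA2) cells and between 597 and 700 FPKM in RelA(wt) cells, and the Nab2 libraries at 1 h lie below those at 0 h and 2 h in each line.

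Egr1 (chr18:34861207-34864956 in mm10, plus strand, 2 exons) encodes the founding member of the family, which drives growth-factor and matrix genes in fibroblasts. Egr1 in RelA(TA2) cells was listed at 22.9 and 28.0 FPKM at 0 h, 150.0 and 279 FPKM at 1 h and 6.13 and 5.20 FPKM at 2 h. Egr1 in RelA(Ser276Ala) cells was listed at 12.1 and 16.0 FPKM at 0 h, 417 and 296 FPKM at 1 h and 5.69 and 5.66 FPKM at 2 h. Egr1 in RelA(wt) cells was listed at 13.5 and 15.5 FPKM at 0 h, 597 and 700 FPKM at 1 h and 6.23 and 6.98 FPKM at 2 h. Every library at 1 h was above every library at 0 h, and every library at 2 h was below every library at 0 h.

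The change of Egr1 at 1 h against 0 h was 2.99 on the log2 scale in RelA(TA2) cells (95% interval 2.40 to 3.58, adjusted p = 1.39e-04 from limma), a 7.94-fold rise in FPKM + 0.5. It was 4.61 in RelA(Ser276Ala) cells (4.02 to 5.21, adjusted p = 7.26e-06), a 24.5-fold rise, and 5.43 in RelA(wt) cells (4.84 to 6.02, adjusted p = 8.37e-07), a 43.2-fold rise. It then fell in every line. Egr1 at 2 h against 1 h had log2 differences of -5.06 in RelA(TA2) cells (adjusted p = 3.75e-06 from limma), -5.83 in RelA(Ser276Ala) cells (adjusted p = 1.31e-06) and -6.51 in RelA(wt) cells (adjusted p = 3.38e-07). At 2 h it stood below its starting level, by 2.07 on the log2 scale in RelA(TA2) cells (adjusted p = 0.00211), with differences of -1.22 in RelA(Ser276Ala) cells (adjusted p = 0.0697) and -1.08 in RelA(wt) cells (adjusted p = 0.0883) that did not pass the test. With fragments recovered from the FPKM and its confidence limits, per 1000000 fragments in genes, all 3 lines passed at 2 h against 0 h, with log2 differences of -2.20, -1.28 and -1.07 (adjusted p = 1.45e-04, 0.0106 and 0.0183 from limma).

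Between lines at 1 h, Egr1 was lower in RelA(TA2) cells, compared with RelA(wt) cells, by 1.66 on the log2 scale (log2 difference -1.66, 95% interval -2.25 to -1.06, adjusted p = 0.00753 from limma). It was 1 of 2 members called there (the other was Nr4a2), against 2.91% of all tested genes. The difference for RelA(Ser276Ala) cells was -0.88 (-1.47 to -0.29, adjusted p = 0.124), with both RelA(Ser276Ala) libraries below both RelA(wt) libraries, and with recovered fragments it was -0.82 (adjusted p = 0.0405). Recovered fragments called 21.9% of all genes in this comparison. RelA(TA2) against RelA(Ser276Ala) cells at 1 h gave -0.78 (-1.37 to -0.19, adjusted p = 0.173), which did not pass, and the 2 groups did not overlap. With 2 libraries per group, here and below, a lack of overlap describes the values and is not a test. Before TNFα both RelA(TA2) libraries were above all libraries of the other lines, by 0.79 on the log2 scale over RelA(wt) cells (0.19 to 1.38, adjusted p = 0.16), a difference that passed only with recovered fragments (0.85, adjusted p = 0.0335). There recovered fragments called 22.6% of all genes.

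The difference between lines in the rise itself was tested directly. The change of Egr1 from 0 h to 1 h was smaller in RelA(TA2) cells, compared with RelA(wt) cells, by 2.44 on the log2 scale (log2 difference -2.44, 95% interval -3.28 to -1.60, adjusted p = 0.0223 from limma). Egr1 was the only 1 of the 8 tested members called in this comparison, against 0.323% of all tested genes. It was called with recovered fragments too (-2.44, adjusted p = 0.01, where 1.70% of all genes were called), but missed the threshold without RelA(wt) 0 h replicate 1 (-2.35, adjusted p = 0.0513) and with the highest transcript only (-2.23, adjusted p = 0.0557) or the compared groups only (adjusted p = 0.176). RelA(Ser276Ala) against RelA(wt) cells gave -0.82 (-1.66 to 0.02, adjusted p = 1) and RelA(TA2) against RelA(Ser276Ala) cells gave -1.62 (-2.46 to -0.79, adjusted p = 0.203). No member was called in these 2 comparisons or in the 3 for the change to 2 h (limma), where 0.218%, 0.226%, 0.226%, 0.170% and 0.145% of all tested genes were called. An unadjusted p under 0.05 was reached there by 0, 4, 2, 1 and 2 members, and recovered fragments called 0 members in each of the 5, where they called 0.235%, 0.378%, 0.302%, 0.235% and 0.948% of all genes. Without a call, these comparisons do not show that the lines responded alike.

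Egr2 (chr10:67537869-67542188, plus strand, 2 exons), known for its part in myelination and in lymphocyte tolerance, was at or near 0 before TNFα. Egr2 in RelA(TA2) cells was listed at 1.18 and 2.83 FPKM at 0 h, 7.22 and 6.97 FPKM at 1 h and 2.48 and 4.14 FPKM at 2 h. Egr2 in RelA(Ser276Ala) cells was listed at 0 in both libraries at 0 h, at 5.73 and 7.38 FPKM at 1 h and at 1.05 and 1.27 FPKM at 2 h. Egr2 in RelA(wt) cells was listed at 0 and 0.85 FPKM at 0 h, 8.46 and 8.62 FPKM at 1 h and 3.58 and 3.11 FPKM at 2 h. The 1 h libraries were above all others in each line. At 1 h the gene was assembled as a transcript of at least 3002 bases in every library, while at 0 h and 2 h the pieces reached at most 963 bases.

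Since FPKM divides by the assembled length, these short pieces stand higher in FPKM than in fragments. For Egr2 in RelA(TA2) cells 11 and 12 fragments were recovered at 0 h, 573 and 553 at 1 h and 26 and 60 at 2 h. The counts in RelA(Ser276Ala) cells were 0 and 0 at 0 h, 449 and 565 at 1 h and 14 and 14 at 2 h. Those in RelA(wt) cells were 0 and 13 at 0 h, 758 and 742 at 1 h and 24 and 27 at 2 h. By FPKM the change at 1 h against 0 h was 1.68 in RelA(TA2) cells (adjusted p = 0.0882 from limma), 3.81 in RelA(Ser276Ala) cells (adjusted p = 0.00104) and 3.46 in RelA(wt) cells (adjusted p = 0.00144). By recovered fragments it was 4.61, 5.44 and 5.35 in the same lines, and all 3 passed (adjusted p = 7.14e-06, 2.20e-06 and 1.35e-06). These log2 values depend on the 0.5 added before the logarithm, because the 0 h levels are at or near 0.

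The decline of Egr2 at 2 h against 1 h was called by FPKM in 1 line, RelA(Ser276Ala) cells (-2.08, adjusted p = 0.036 from limma), a call that ended without any 1 of 12 libraries (adjusted p between 0.0565 and 0.134). The FPKM differences were -1.03 in RelA(TA2) cells (adjusted p = 0.308) and -1.24 in RelA(wt) cells (adjusted p = 0.165). By recovered fragments Egr2 fell in each line, with log2 differences of -3.47 in RelA(TA2) cells, -4.33 in RelA(Ser276Ala) cells and -4.13 in RelA(wt) cells (adjusted p = 4.35e-05, 1.78e-05 and 9.79e-06). At 2 h against 0 h the FPKM differences of Egr2 were 0.65 in RelA(TA2) cells (adjusted p = 0.5), 1.73 in RelA(Ser276Ala) cells (adjusted p = 0.115) and 2.22 in RelA(wt) cells (adjusted p = 0.0278), a call lost without RelA(wt) 0 h replicate 1 or without either RelA(wt) 2 h library (adjusted p 0.085 to 0.122). By recovered fragments they were 1.14, 1.11 and 1.22 in the same lines (adjusted p = 0.0257, 0.058 and 0.0339), past the test in RelA(TA2) and RelA(wt) cells. Between the mutant lines Egr2 was called higher in RelA(TA2) cells at 0 h (2.24, adjusted p = 0.0186), which rests on 11 and 12 fragments against 0 and 0, and with recovered fragments that difference did not pass (0.94, adjusted p = 0.0571).

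**Figure D2:**
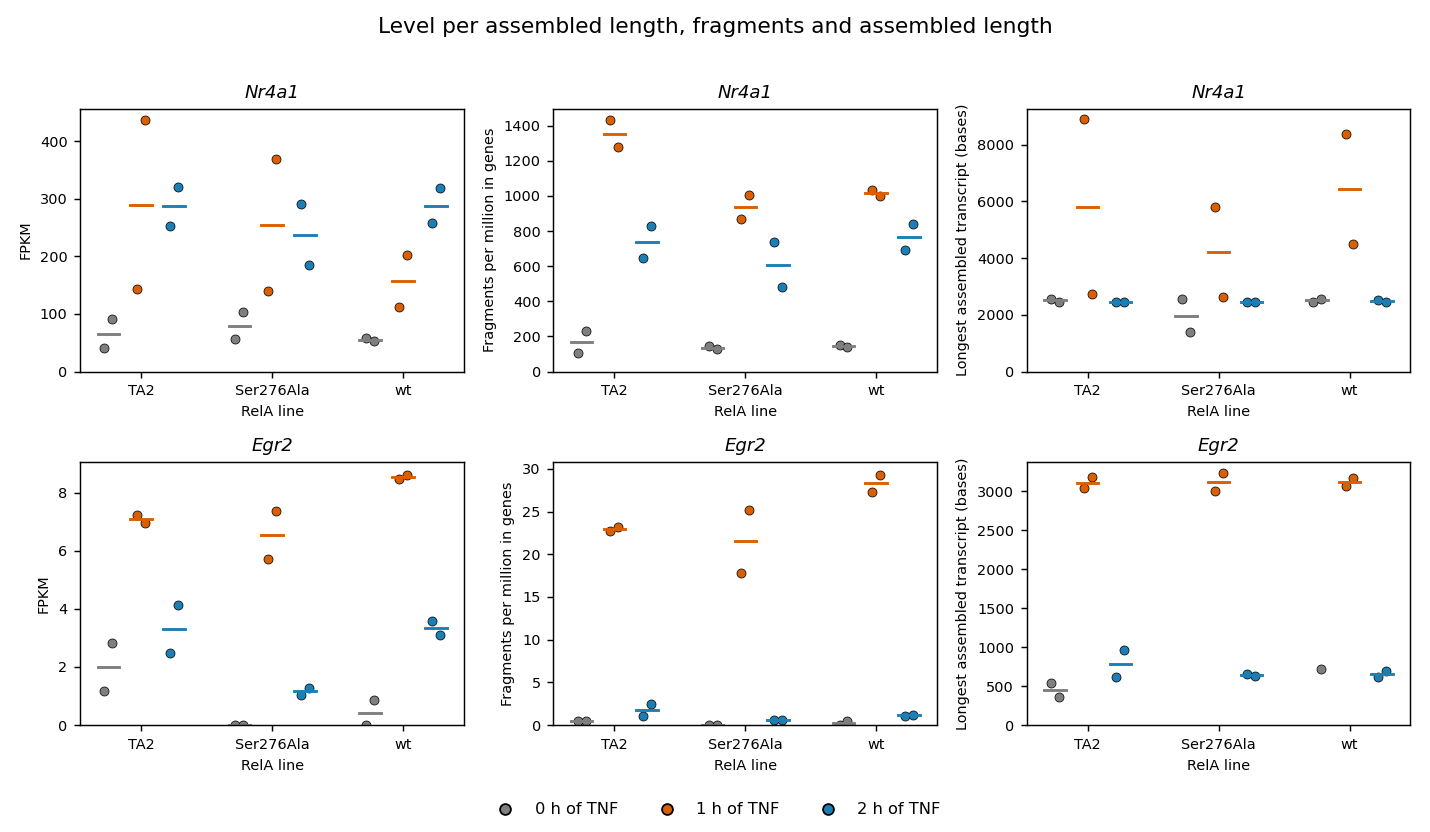
Nr4a1 (top) and Egr2 (bottom) in each library by FPKM, by fragments recovered per 1000000 fragments in genes and by the length in bases of the longest assembled transcript, all on linear axes from 0. Points are libraries, bars are means of 2 libraries, and a library without a transcript has no length. At 1 h the Nr4a1 transcripts run from 2620 to 8899 bases while fragments stay between 870 and 1431 per 1000000 fragments in genes, and Egr2 transcripts are at least 3002 bases long.

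Egr3 (chr14:70077445-70080157, plus strand, 2 exons), a member first known for its part in muscle spindles and T cells, rose at 1 h and was back near its starting level at 2 h. Egr3 in RelA(TA2) cells was listed at 1.76 and 1.47 FPKM at 0 h, 11.2 and 9.25 FPKM at 1 h and 1.71 and 2.56 FPKM at 2 h. Egr3 in RelA(Ser276Ala) cells was listed at 5.19 and 4.84 FPKM at 0 h, 12.3 and 16.4 FPKM at 1 h and 5.79 and 4.74 FPKM at 2 h. Egr3 in RelA(wt) cells was listed at 3.26 and 3.92 FPKM at 0 h, 13.3 and 13.5 FPKM at 1 h and 4.33 and 4.94 FPKM at 2 h. The 1 h libraries stood above all others within each line.

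The rise of Egr3 at 1 h was 2.34 on the log2 scale in RelA(TA2) cells (adjusted p = 1.05e-04 from limma), 1.42 in RelA(Ser276Ala) cells (adjusted p = 0.00383) and 1.77 in RelA(wt) cells (adjusted p = 5.61e-04). With recovered fragments the rises were 3.37 in RelA(TA2) cells (adjusted p = 0.00109), 1.61 in RelA(Ser276Ala) cells, which missed the threshold (adjusted p = 0.0825), and 1.98 in RelA(wt) cells (adjusted p = 0.0318). The fall of Egr3 that followed, at 2 h against 1 h, was -2.04, -1.36 and -1.44 in the same order (adjusted p = 3.35e-04, 0.00484 and 0.00218). Egr3 was the 1 member called between RelA(TA2) and RelA(wt) cells before TNFα, lower in RelA(TA2) cells (-0.95, adjusted p = 0.0277, against 3.46% of all tested genes) and again the 1 member called between these lines at 2 h (-0.98, adjusted p = 0.0257, against 3.21%). Compared with RelA(Ser276Ala) cells it was also lower in RelA(TA2) cells, by a log2 difference of -1.39 at 0 h (adjusted p = 0.00436) and -1.14 at 2 h (adjusted p = 0.0115). With recovered fragments all 4 stayed called, with log2 differences of -1.84 at 0 h and -1.60 at 2 h from RelA(wt) cells (adjusted p = 0.0186 and 0.0358) and of -2.32 and -1.78 from RelA(Ser276Ala) cells (adjusted p = 0.00532 and 0.0215). That scale called 22.6%, 22.9%, 26.4% and 23.0% of all genes in the same comparisons. With the highest transcript only, all 4 calls ended (adjusted p 0.0764 to 0.165). The 2 against RelA(wt) cells also ended without replicate 2 of RelA(TA2) cells at 0 h (or replicate 1 at 2 h) or either RelA(wt) library (adjusted p up to 0.129 at 0 h and 0.131 at 2 h), and that against RelA(Ser276Ala) cells at 2 h without replicate 1 of either line (0.0584 and 0.0641). At 1 h its libraries in RelA(TA2) cells were the lowest of all 3 lines, with log2 differences that did not pass. In 2 RelA(TA2) libraries, 0 h replicate 2 and 2 h replicate 1, the assembled transcript was 1535 and 2019 bases long, against 3672 to 4580 bases for the transcripts of the other 16 libraries. Recovered fragments count only the assembled stretch. They were 55 and 88 in these 2 libraries, against 177 and 272 in the other replicate of each condition, where FPKM lay closer together. The fragment differences of Egr3 that involve RelA(TA2) cells at 0 h or 2 h thus carry the shorter assemblies, whose part in them was not tested.

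Egr4 (chr6:85511122-85513542, minus strand, 2 exons), a member best known from neurons and germ cells, was listed at 0 in all 18 libraries and was not tested.

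Nab2 (chr10:127660918-127666703, minus strand, 7 exons) had its lowest levels at 1 h, when Egr1 had its highest. Nab2 in RelA(TA2) cells was listed at 92.2 and 78.6 FPKM at 0 h, 64.2 and 71.4 FPKM at 1 h and 110.0 and 136 FPKM at 2 h. Nab2 in RelA(Ser276Ala) cells was listed at 90.2 and 94.8 FPKM at 0 h, 58.2 and 54.2 FPKM at 1 h and 141 and 124 FPKM at 2 h. Nab2 in RelA(wt) cells was listed at 74.5 and 77.4 FPKM at 0 h, 50.3 and 47.1 FPKM at 1 h and 118 and 105 FPKM at 2 h. No library overlapped between the 3 times in any line.

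The difference of Nab2 at 1 h against 0 h was -0.33 on the log2 scale in RelA(TA2) cells (95% interval -0.60 to -0.06, adjusted p = 0.264 from limma), which did not pass. It fell by 0.71 in RelA(Ser276Ala) cells (adjusted p = 0.013) and by 0.64 in RelA(wt) cells (adjusted p = 0.0271). The RelA(wt) call ended without any 1 of the 4 libraries compared (adjusted p 0.0681 to 0.126), and the RelA(Ser276Ala) call without replicate 2 of either time (adjusted p 0.077 and 0.0728) and with the highest transcript only (0.235). With recovered fragments the differences were -0.37, -0.82 and -0.84 (adjusted p = 0.0534, 7.50e-04 and 5.54e-04). From 1 h to 2 h Nab2 rose in every line, by 0.85 in RelA(TA2) cells (adjusted p = 0.00418), 1.23 in RelA(Ser276Ala) cells (adjusted p = 5.07e-04) and 1.18 in RelA(wt) cells (adjusted p = 3.71e-04).

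At 2 h Nab2 was above its 0 h level in every library, by a log2 difference of 0.52 in RelA(TA2) cells (0.25 to 0.79, adjusted p = 0.0411), 0.52 in RelA(Ser276Ala) cells (0.25 to 0.78, adjusted p = 0.0924) and 0.55 in RelA(wt) cells (0.28 to 0.81, adjusted p = 0.0545). The RelA(TA2) call ended without any 1 of 14 libraries (adjusted p 0.0504 to 0.225) and with the highest transcript only (0.12). At 1 h Nab2 differed between RelA(TA2) and RelA(wt) cells by 0.47 (0.20 to 0.74, adjusted p = 0.0689), which passed with recovered fragments (0.55, adjusted p = 0.00494), as did the difference of RelA(TA2) from RelA(Ser276Ala) cells at 1 h (0.41, adjusted p = 0.0214, against 0.27 and adjusted p = 0.311 by FPKM). Recovered fragments called 19.9% and 21.0% of all genes in the same comparisons. Exons of Nab2 share 70 bases with those of Stat6 on the opposite strand, and no assembled transcript joined the pair.

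Nab1 (chr1:52455849-52500448, minus strand, 8 exons), the other co-repressor, stayed between 26.8 and 37.0 FPKM over all 18 libraries, with a median of 30.8 FPKM. None of its 24 comparisons was called by limma, 1 had an unadjusted p under 0.05, and 1 was called with recovered fragments, RelA(TA2) cells at 2 h against 0 h (0.27, adjusted p = 0.0188). Its log2 differences by FPKM ran from -0.14 to 0.24.

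Nr4a1 (chr15:101266846-101274794, plus strand, 7 exons) encodes Nur77, a receptor known for its part in apoptosis of T cells and in restraint of inflammation. Nr4a1 in RelA(TA2) cells was listed at 40.7 and 91.4 FPKM at 0 h, 143 and 437 FPKM at 1 h and 253 and 321 FPKM at 2 h. Nr4a1 in RelA(Ser276Ala) cells was listed at 56.7 and 103 FPKM at 0 h, 139 and 369 FPKM at 1 h and 290.0 and 185 FPKM at 2 h. Nr4a1 in RelA(wt) cells was listed at 58.2 and 52.6 FPKM at 0 h, 112 and 203 FPKM at 1 h and 257 and 319 FPKM at 2 h. All libraries at 1 h and 2 h were above all libraries at 0 h, but the 2 libraries at 1 h were far apart in every line.

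The spread at 1 h went with the assembled length. In RelA(TA2) cells at 1 h, replicate 1 had a transcript of 8899 bases and replicate 2 one of 2739 bases, and 36093 and 30524 fragments were recovered. In RelA(Ser276Ala) cells the lengths were 5805 and 2620 bases with 21899 and 22517 fragments, and in RelA(wt) cells 8370 and 4491 bases with 28713 and 25256 fragments. The annotated exons of Nr4a1 add up to 2476 bases, and nearly all the rest of the long transcripts was an extension of the first exon, by 6191 bases before the annotated start in RelA(TA2) replicate 1. In RelA(TA2) 1 h replicate 2 most of this stretch was assembled on its own, as 7061 bases at 2.42 FPKM with 458 fragments, beside 437 FPKM for the gene. The FPKM of the long transcripts thus divides about the same number of fragments by a greater length.

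**Figure D3:**
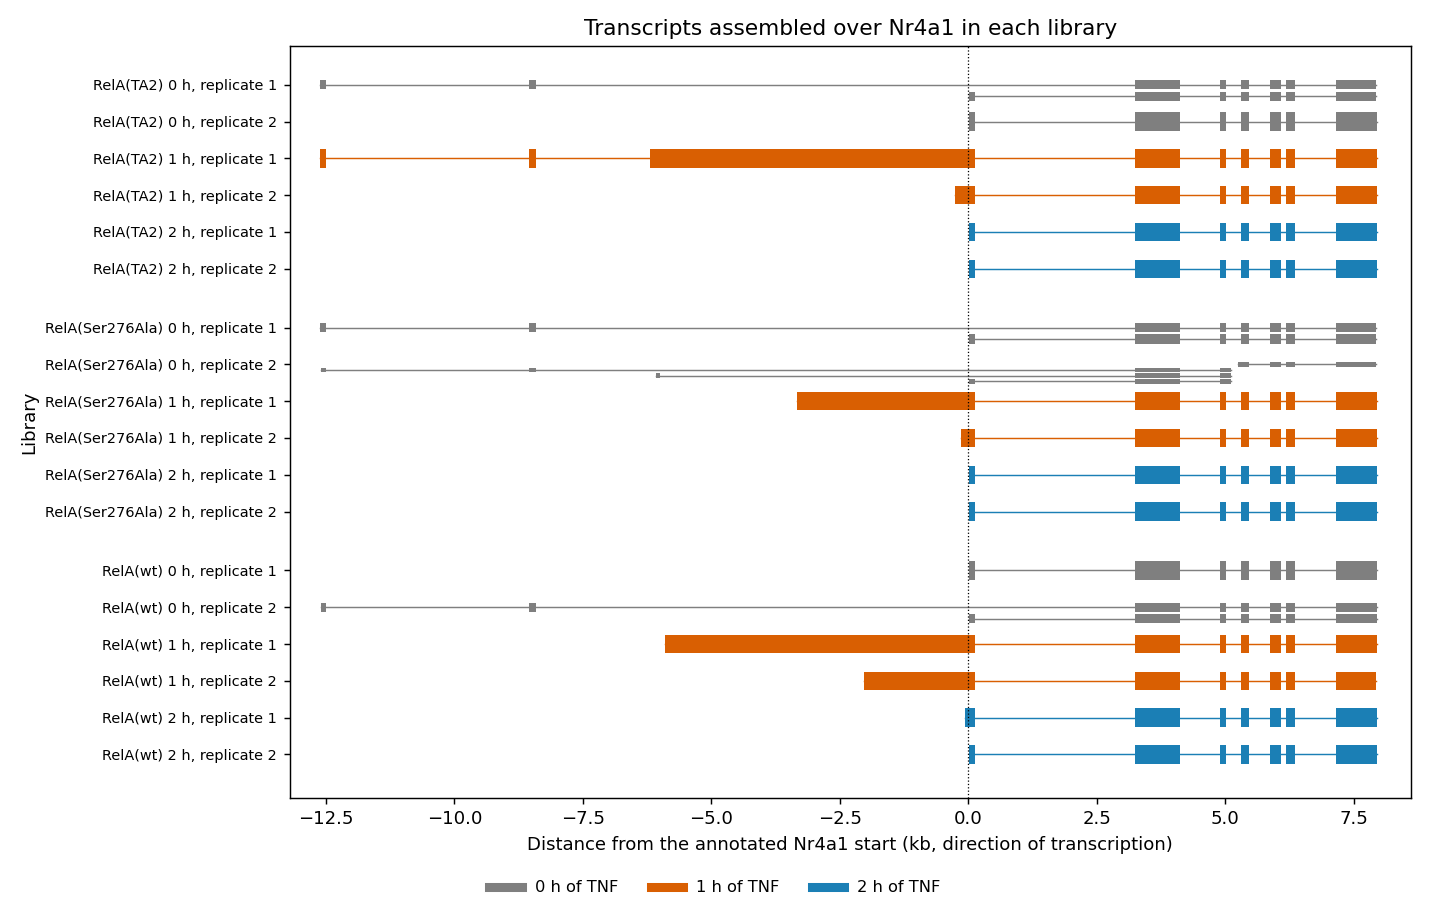
Transcripts assembled over Nr4a1 in each library, with exons as bars and introns as lines, against the distance in kb from the annotated start in the direction of transcription. Rows are libraries, and colours are times of TNFα. In 4 of the 6 libraries at 1 h the first exon runs more than 2000 bases ahead of the start, from 6191 bases in RelA(TA2) replicate 1 to 2025 bases in RelA(wt) replicate 2, and in none of the 6 at 2 h does it reach more than 60 bases ahead.

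By FPKM, Nr4a1 was called in none of its 9 comparisons between times (limma), although 6 had an unadjusted p under 0.05. The FPKM differences at 1 h against 0 h were 2.03 in RelA(TA2) cells, 1.56 in RelA(Ser276Ala) cells and 1.44 in RelA(wt) cells (adjusted p = 0.16, 0.432 and 0.445). On the scale of fragments per 1000000 fragments in genes, Nr4a1 had 103 and 231 in RelA(TA2) cells at 0 h, 1431 and 1279 at 1 h and 646 and 829 at 2 h. RelA(Ser276Ala) cells had 145 and 128 at 0 h, 870 and 1005 at 1 h and 740 and 479 at 2 h. RelA(wt) cells had 150 and 137 at 0 h, 1035 and 998 at 1 h and 691 and 841 at 2 h. On this scale the times did not overlap within a line, and the 1 h libraries were the highest.

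The rise by fragments at 1 h against 0 h was 3.13 on the log2 scale in RelA(TA2) cells (95% interval 2.45 to 3.80, adjusted p = 7.33e-05 from limma), 2.78 in RelA(Ser276Ala) cells (2.10 to 3.45, adjusted p = 2.23e-04) and 2.82 in RelA(wt) cells (2.14 to 3.49, adjusted p = 1.63e-04). By fragments 6, 4 and 5 of the 8 tested members were called at 1 h in these lines, against 10.3%, 6.08% and 6.87% of the 11915 genes tested on this scale. At 2 h against 0 h fragments called 7, 4 and 6 members, against 27.5%, 10.2% and 12.9% of genes, and at 2 h against 1 h they called 6, 5 and 6, against 20.1%, 17.7% and 24%. Nr4a1 was still higher by fragments at 2 h than at 0 h, by 2.24, 2.13 and 2.40 (adjusted p = 4.30e-04, 0.00194 and 5.03e-04). The order of 1 h and 2 h turned with the measure. The FPKM differences at 2 h against 1 h were 0.19, 0.03 and 0.92 in RelA(TA2), RelA(Ser276Ala) and RelA(wt) cells, and the fragment differences were -0.89, -0.65 and -0.41, none past the test (adjusted p by fragments 0.0651, 0.172 and 0.379). Nr4a1 was called in none of its 15 comparisons between lines (limma), with 0 at an unadjusted p under 0.05 and 0 by recovered fragments.

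Nr4a2 (chr2:57107226-57124003, minus strand, 9 exon blocks) encodes Nurr1, known for its part in dopamine neurons, and was higher at 2 h than at 1 h in every line. Nr4a2 in RelA(TA2) cells was listed at 10.2 and 11.99 FPKM at 0 h, 15.6 and 15.9 FPKM at 1 h and 28.4 and 32.9 FPKM at 2 h. Nr4a2 in RelA(Ser276Ala) cells was listed at 5.95 and 6.14 FPKM at 0 h, 6.72 and 6.56 FPKM at 1 h and 10.7 and 13.9 FPKM at 2 h. Nr4a2 in RelA(wt) cells was listed at 9.69 and 8.67 FPKM at 0 h, 10.2 and 10.3 FPKM at 1 h and 24.1 and 25.7 FPKM at 2 h. The libraries of the 3 lines did not overlap at 0 h, 1 h or 2 h, with RelA(TA2) cells highest and RelA(Ser276Ala) cells lowest at each time, before TNFα included.

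Nr4a2 rose at 2 h against 0 h by 1.42 on the log2 scale in RelA(TA2) cells (95% interval 1.13 to 1.71, adjusted p = 2.36e-04 from limma), by 0.96 in RelA(Ser276Ala) cells (0.67 to 1.25, adjusted p = 0.00607) and by 1.39 in RelA(wt) cells (1.11 to 1.68, adjusted p = 2.77e-04). Most of the rise fell after 1 h. From 1 h to 2 h the changes were 0.93, 0.83 and 1.24 in the same lines (adjusted p = 0.00352, 0.00774 and 3.91e-04). At 1 h against 0 h no line passed by FPKM, with differences of 0.12 to 0.49, while recovered fragments called RelA(TA2) cells (0.58, adjusted p = 0.00842).

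Nr4a2 was called in 3 of its 6 comparisons of a mutant line with RelA(wt) cells and in all 3 between the mutant lines. In RelA(Ser276Ala) cells it was lower, compared with RelA(wt) cells, at 1 h (log2 difference -0.59, adjusted p = 0.0372 from limma) and at 2 h (-0.997, 95% interval -1.28 to -0.71, adjusted p = 0.00227), the 1 member called at each time, against 3.0% and 3.42% of all tested genes. At 0 h the difference was -0.56 (-0.85 to -0.28, adjusted p = 0.0592), and no member was called there by limma, against 1.95% of all tested genes, with 3 members at an unadjusted p under 0.05 and 1 called by recovered fragments (Nr4a2, -0.57, adjusted p = 0.00662), where 16.3% of all genes were. In RelA(TA2) cells at 1 h it was higher than in RelA(wt) cells (0.59, adjusted p = 0.0357). Both calls at 1 h were narrow and ended without any 1 of 8 libraries for RelA(TA2) cells (adjusted p 0.0517 to 0.144) and any 1 of 10 for RelA(Ser276Ala) cells (0.0532 to 0.136), the second also with the highest transcript only (adjusted p = 0.123). By recovered fragments both passed, with 0.68 for RelA(TA2) cells (adjusted p = 0.00217) and -0.63 for RelA(Ser276Ala) cells (adjusted p = 0.00322). On that scale 19.9% and 21.9% of all genes were called in the same comparisons.

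Between the mutant lines, Nr4a2 was higher in RelA(TA2) cells at 0 h (0.82, adjusted p = 0.00714 from limma), at 1 h (1.19, adjusted p = 7.08e-04) and at 2 h (1.29, adjusted p = 6.49e-04). In this comparison 3 members were called at 0 h, 1 at 1 h and 2 at 2 h, against 3.47%, 3.21% and 3.33% of all tested genes. The change from 0 h did not differ between lines for Nr4a2 past the test, with log2 differences between -0.43 and 0.46 (adjusted p of at least 0.646). Pieces within the span of Nr4a2 that shared too few bases with its exons to be placed on it are not in these levels. They held 12 to 36 fragments per library at 0 h and 0 to 111 at 2 h. At 1 h they held 148 and 148 fragments in RelA(TA2) cells, 40 and 47 in RelA(Ser276Ala) cells and 181 and 80 in RelA(wt) cells.

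**Figure D4:**
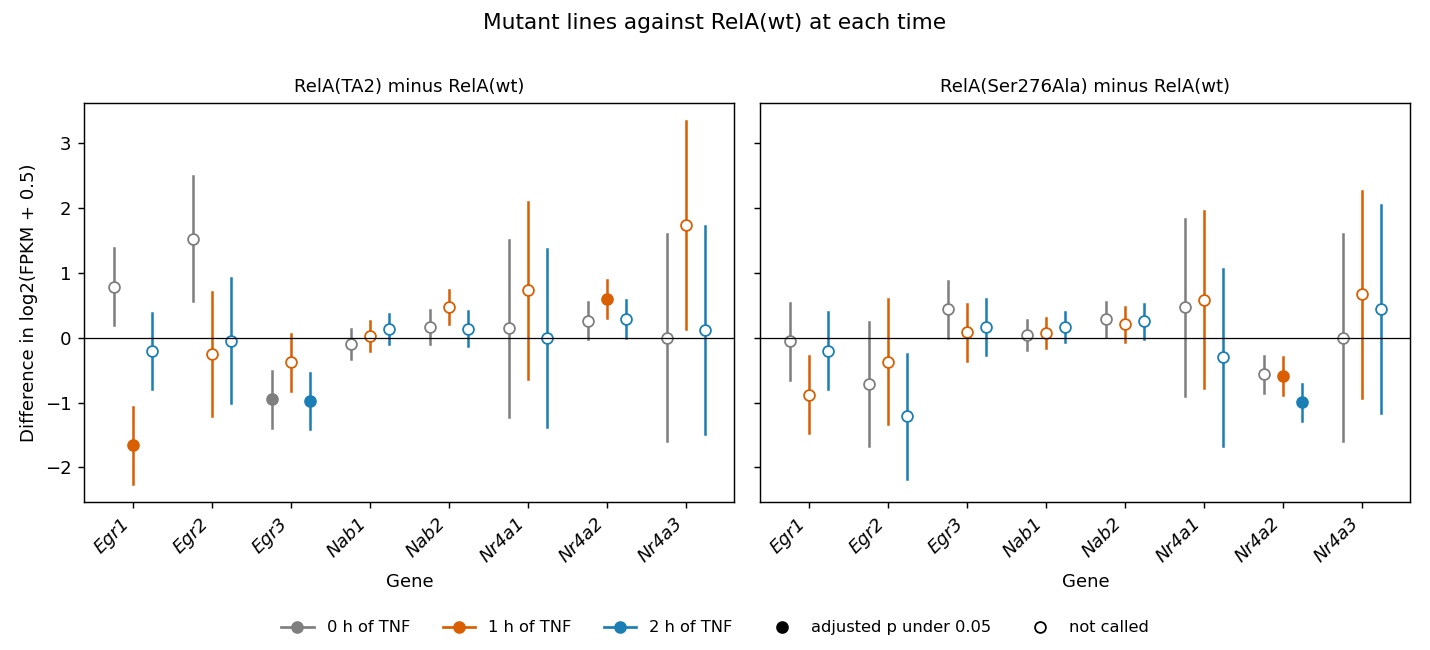
Difference in log2(FPKM + 0.5) of each mutant line from RelA(wt) cells at 0 h, 1 h and 2 h of TNFα for the 8 tested members. Points are limma estimates, lines their 95% intervals and filled points those with an adjusted p under 0.05. Egr1 at 1 h (-1.66) and Nr4a2 at 1 h (0.59) are filled for RelA(TA2) cells, as are Egr3 at 0 h (-0.95) and 2 h (-0.98), and Nr4a2 at 1 h (-0.59) and 2 h (-0.997) for RelA(Ser276Ala) cells.

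Nr4a3 (chr4:48051248-48083352, plus strand, 6 exons) encodes Nor1 and was listed at 0 in all 6 libraries at 0 h. Nr4a3 in RelA(TA2) cells was listed at 2.16 and 5.93 FPKM at 1 h and 2.97 and 3.12 FPKM at 2 h. Nr4a3 in RelA(Ser276Ala) cells was listed at 1.23 and 1.74 FPKM at 1 h and 2.33 and 6.44 FPKM at 2 h, and in RelA(wt) cells at 2.58 and 0 FPKM at 1 h and 3.01 and 2.56 FPKM at 2 h. None of its 24 comparisons was called by FPKM (limma), with 6 at an unadjusted p under 0.05, and 10 were called by recovered fragments. Nr4a3 passed the filter through libraries with TNFα, so the direction of its comparisons with 0 h was fixed beforehand. Of the 6 with an unadjusted p under 0.05, only RelA(TA2) against RelA(wt) cells at 1 h (unadjusted p = 0.0361 from limma) was not against 0 h. In comparisons of TNFα with 0 h, recovered fragments called 6.08% to 27.5% of all genes. The Nr4a3 transcripts were pieces of 371 to 5568 bases, so FPKM and fragments order the libraries differently. Fragments were 106 and 56 in RelA(TA2) cells at 1 h and 452 and 170 at 2 h, 10 and 11 and then 49 and 47 in RelA(Ser276Ala) cells, and 24 and 0 and then 217 and 198 in RelA(wt) cells. No fold is given against libraries listed at 0. By recovered fragments Nr4a3 rose between 1 h and 2 h in RelA(TA2) cells (1.67, adjusted p = 0.0304 from limma) and RelA(wt) cells (3.57, adjusted p = 3.28e-04), with 1.39 in RelA(Ser276Ala) cells (adjusted p = 0.0678), where the FPKM differences were -0.22, 1.4 and 1.17 in RelA(TA2), RelA(wt) and RelA(Ser276Ala) cells. At 2 h it was lower by fragments in RelA(Ser276Ala) cells than in RelA(wt) cells (-1.99, adjusted p = 0.0104, against 0.44 by FPKM), and higher in RelA(TA2) cells than in RelA(Ser276Ala) cells (2.23, adjusted p = 0.00683, against -0.32 by FPKM). Fragments called 27.3% and 23.0% of all genes in these comparisons. The sign of these comparisons thus turned with the measure.

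Set side by side as levels per length, Nab2 was the highest member at 0 h in every line, followed by Nr4a1, and the libraries of these neighbours overlapped in RelA(TA2) and RelA(Ser276Ala) cells but not in RelA(wt) cells. At 1 h Egr1 had the highest mean in RelA(Ser276Ala) cells (356.5 FPKM), where its libraries overlapped those of Nr4a1, and in RelA(wt) cells (649 FPKM), where they did not. In RelA(TA2) cells Nr4a1 (289.9 FPKM) stood above Egr1 (215 FPKM) at 1 h, with overlapping libraries. As fragments per 1000000 fragments in genes and per kb of the gene's exons, a level that does not divide by the assembled length, Nr4a1 stood at 578 and 517 in RelA(TA2) cells at 1 h and Egr1 at 163 and 269, without overlap. On that scale the libraries of Egr1 and Nr4a1 overlapped in RelA(Ser276Ala) cells (460 and 280 for Egr1, 351 and 406 for Nr4a1), and Egr1 was above in RelA(wt) cells (589 and 679 for Egr1, 418 and 403 for Nr4a1). At 0 h on that scale, Nab2 (99.8 and 101) and Nr4a1 (58.55 and 51.5) did not overlap in RelA(Ser276Ala) cells. In RelA(TA2) cells they still did (111 and 85.6 for Nab2, 41.6 and 93.45 for Nr4a1). The 103 FPKM of Nr4a1 in RelA(Ser276Ala) 0 h replicate 2 was the sum of 4 transcripts of 1166 to 1380 bases. At 2 h Nr4a1 was the highest in every line, with means of 287, 237.5 and 288 FPKM in RelA(TA2), RelA(Ser276Ala) and RelA(wt) cells, followed by Nab2 without overlap. Egr1 was then in the fifth place in every line.

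Of 15 listed upstream factors of these genes, which include Srf, the Elk factors, Creb1 and the Mef2 factors, all were tested, and at 1 h Srf in RelA(Ser276Ala) cells was the 1 call (0.91, adjusted p = 0.00798 from limma). Srf, the serum response factor, was listed there at 19.6 and 23.2 FPKM at 1 h against 10.8 and 11.4 FPKM at 0 h. In RelA(TA2) cells it was listed at 23.0 and 18.8 FPKM against 13.8 and 14.0 FPKM (0.56, adjusted p = 0.0824 from limma). In RelA(wt) cells it was listed at 15.5 and 14.9 FPKM against 12.6 and 10.5 FPKM (0.39, adjusted p = 0.345). Its 1 h libraries were thus above its 0 h libraries in every line. The list had median log2 differences of -0.00 in RelA(TA2) cells, 0.06 in RelA(Ser276Ala) cells and 0.10 in RelA(wt) cells, beside -0.07, 0 and -0.01 over all tested genes. Of 6 tested partners and co-regulators, such as Rxra, Rxrb, Crebbp and Ep300, none was called in any line at 1 h (limma). By an unadjusted p under 0.05, 1, 2 and 1 upstream factors and no partner would pass in RelA(TA2), RelA(Ser276Ala) and RelA(wt) cells, and recovered fragments called 1 of the 15 upstream factors in each line and 1 partner in RelA(wt) cells. Over all genes at 1 h, FPKM called 2.00%, 1.51% and 1.57% and fragments 10.3%, 6.08% and 6.87% in these lines.

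The Egr targets listed rose in part. Of 9 tested, 3 were higher at 1 h in RelA(TA2) cells, 2 in RelA(Ser276Ala) cells and 2 in RelA(wt) cells, against 2.00%, 1.51% and 1.57% of all tested genes. Their median log2 differences were 0.40, 0.01 and 0.19, beside -0.07, 0 and -0.01 over all tested genes. Recovered fragments called 5, 3 and 3 of them, against 10.3%, 6.08% and 6.87% of genes. Thbs1, which encodes the matrix protein thrombospondin-1, was listed at 371 and 337 FPKM at 1 h against 157 and 107 FPKM at 0 h in RelA(TA2) cells (1.44, adjusted p = 0.0036 from limma). In RelA(Ser276Ala) cells it was listed at 113 and 164 FPKM against 37.7 and 42.2 FPKM (1.75, adjusted p = 0.00104), and in RelA(wt) cells at 132 and 131 FPKM against 34.8 and 38.9 FPKM (1.83, adjusted p = 5.12e-04). F3, tissue factor, was called in RelA(TA2) and RelA(wt) cells (1.26 and 0.80, adjusted p = 0.00302 and 0.0471), and Plau, urokinase, in RelA(TA2) and RelA(Ser276Ala) cells (1.46 and 1.02, adjusted p = 0.00415 and 0.0395).

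Other immediate-early genes rose widely at 1 h. Of 23 tested, 12 were higher in RelA(TA2) cells, 14 in RelA(Ser276Ala) cells and 14 in RelA(wt) cells, and none was lower, against 2.00%, 1.51% and 1.57% of all tested genes called in either direction. Their median log2 differences were 1.30, 1.73 and 2.08, beside -0.07, 0 and -0.01 over all tested genes, and recovered fragments called 20, 19 and 19 of them, against 10.3%, 6.08% and 6.87%. In the comparison in which Egr1 was called, the change to 1 h in RelA(TA2) cells against that in RelA(wt) cells, 3 of these 23 genes were called, all with a lower change in RelA(TA2) cells, against 0.323% of all tested genes, with a median of -0.39 beside -0.06 over all tested genes. There 15 of the 23 had an unadjusted p under 0.05, and recovered fragments called 9, against 1.70% of all genes. Btg2, an anti-proliferative gene, was listed at 75.3 and 91.5 FPKM at 1 h against 13.4 and 14.5 FPKM at 0 h in RelA(TA2) cells, 104 and 86.9 FPKM against 12.9 and 12.1 FPKM in RelA(Ser276Ala) cells and 175 and 182 FPKM against 16.5 and 16.9 FPKM in RelA(wt) cells. Its log2 differences were 2.53, 2.88 and 3.38 (adjusted p = 6.74e-06, 3.35e-06 and 3.45e-07 from limma). Klf6, a zinc-finger factor, followed with 1.43, 1.95 and 2.54 (adjusted p = 2.20e-05, 3.35e-06 and 2.40e-07). Atf3, a factor of the stress response, changed by 4.40 in RelA(TA2) cells (adjusted p = 8.21e-06), Junb, an AP-1 subunit, by 2.72 in RelA(Ser276Ala) cells (adjusted p = 5.30e-05) and Myc by 2.14 in RelA(wt) cells (adjusted p = 4.91e-06). Each is given for the line in which it was among the 3 smallest adjusted p. In every line both 1 h libraries of Atf3, Junb and Myc were above both 0 h libraries. Atf3 went from 1.78 and 2.66 to 51.6 and 60.8 FPKM in RelA(TA2) cells. In RelA(wt) cells it went from 20.9 and 16.7 to 97.5 and 105.7 FPKM.

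Across the 18 libraries, the genes whose log2 levels were most like that of Egr1 were Zfp36 (Pearson r = 0.987), Pramef8 (0.986) and Ppp1r15a (0.984). Zfp36, which encodes an mRNA-decay factor, was listed at 9.86 and 17.4 FPKM at 1 h in RelA(TA2) cells, 26.5 and 19.3 FPKM in RelA(Ser276Ala) cells and 28.2 and 35.0 FPKM in RelA(wt) cells. Its libraries at 1 h were ordered by line as those of Egr1, as its choice by likeness to Egr1 favours. For Nr4a1 the nearest genes were Birc3 (0.858), Syngr1 (0.846) and Pgf (0.845), and for Nab2 they were Pprc1 (0.979), B4galt5 (0.964) and Fem1b (0.923). Pprc1, a co-activator related to PGC-1, was listed at 22.3 and 21.2 FPKM at 1 h in RelA(TA2) cells, 20.6 and 19.9 FPKM in RelA(Ser276Ala) cells and 17.5 and 15.9 FPKM in RelA(wt) cells, below every library of the same line at 0 h and 2 h. The named genes were picked by these coefficients, so an order of lines or times shared with the member follows from the choice. These coefficients describe 18 libraries that share 9 conditions, and their Nr4a1 values carry the effect of assembled length.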

How the data were processed

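Per the labels, RNA was reverse-transcribed from poly-dT primers, a step the study's methods give for qPCR, and libraries were made with TruSeq kits. They were sequenced on an Illumina HiSeq system. Per the labels, the authors used CASAVA 1.8.2, TopHat2 2.0.5, Bowtie2 2.0.0.7 and Cufflinks 2.0.2 with mm10. The deposited assemblies give FPKM and confidence limits for each transcript and library. The output of Cuffdiff was not used. Transcripts were placed on genes of the merged annotation where at least 50% of their bases, or 50% of the gene's exonic bases, were shared. Fragments were recovered from FPKM and its upper limit, and of those below 500, 88.9% to 90.2% per library lay within 0.02 of a whole number.

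The 12386 genes that reached 1 FPKM in 2 or more libraries entered limma (version 3.58.1, R 4.3.3) as log2(FPKM + 0.5), with 1 mean per condition, leaving 9 residual degrees of freedom, and the variance trend switched on. P-values are two-sided, adjusted by Benjamini and Hochberg over all tested genes. The script was tested on simulated data. Libraries of 1 condition had a median SD of 0.30 (log2) by FPKM and 0.105 by fragments, at 25230000 to 31210000 mapped fragments per library. Tables were made with Python 3.11.15. Alternatives were the added amount, the filter, scaling, the highest transcript, recovered fragments, the fit on compared groups only, no variance trend, a replicate block and leaving out each library. Members and lists were chosen with earlier results of these data known. All 9 members were named, with the 3 nearest genes of Egr1, Nr4a1 and Nab2, and up to 3 called genes per list with the smallest adjusted p.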

Additional observations from a re-analysis of the deposited data

Results flagged for a closer look

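The rise of Egr1 at 1 h of TNFα differed between lines by a direct test of the difference. Its log2 change from 0 h was smaller in RelA(TA2) cells, compared with RelA(wt) cells, by 2.44 (difference -2.44, adjusted p = 0.0223 from limma), with both RelA(TA2) libraries above both RelA(wt) libraries at 0 h and below them at 1 h. The Egr1 call was lost with the highest transcript only, with the compared groups only and without RelA(wt) 0 h replicate 1. The same comparison called 3 of 23 other immediate-early genes, against 0.323% of all tested genes. All 3 had a lower change from 0 h in RelA(TA2) cells. Recovered fragments called 9 of the 23, against 1.70% of all genes. Conditions of 2 libraries are too small for a test of single outlying libraries.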

How the results depend on the processing

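Each of the 29 alternatives was run for the number of calls in each kind of comparison and for 66 single differences. A fit on the compared groups only gave fewer calls throughout: 2 in place of 10 at 1 h against 0 h, 2 in place of 6 at 2 h against 0 h, 3 in place of 13 at 2 h against 1 h, 0 in place of 6 between mutant lines and RelA(wt), 0 in place of 1 for the difference in response and 0 in place of 6 between the mutant lines. That fit has fewer libraries. Recovered fragments gave 17 calls at 2 h against 0 h and 12 between mutant lines and RelA(wt). On that scale 10.2% to 27.5% of all genes were called at 2 h against 0 h. Between mutant lines and RelA(wt) it was 16.3% to 27.3% of all genes, so the 12 calls do not set the members apart. The highest transcript only gave 3 calls between mutant lines and RelA(wt) and 0 for the difference in response. Of the 42 calls, 5 passed in every alternative. Leaving out 1 library at a time gave 9 to 10, 4 to 8, 12 to 13, 3 to 7, 0 to 2 and 5 to 8 calls in the same order of comparisons. Among the 66 differences, the sign turned only for Nr4a1 at 2 h against 1 h: with recovered fragments (RelA(TA2) -0.89, RelA(Ser276Ala) -0.65, RelA(wt) -0.41), without RelA(TA2) 1 h replicate 1 (-0.61) and without RelA(Ser276Ala) 1 h replicate 1 (-0.67) or 2 h replicate 1 (-0.29). Leaving out 1 library, this difference ran from -0.61 to 0.99 in RelA(TA2) cells and from -0.67 to 0.73 in RelA(Ser276Ala) cells. Over all 192 member comparisons, recovered fragments gave the opposite sign to FPKM in 20, none of them called by FPKM and 3 called by fragments, all of Nr4a3: RelA(TA2) cells at 2 h against 1 h (1.67), and at 2 h RelA(Ser276Ala) against RelA(wt) cells (-1.99) and RelA(TA2) against RelA(Ser276Ala) cells (2.23). The cause of the other changes was not tested.

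Libraries with the same replicate number did not deviate together (correlations of -0.07 to 0.10 over 36 pairs of libraries). With the replicate number as a block there were 10, 7, 13, 6, 1 and 6 calls in the same order of comparisons. Nr4a1 at 2 h against 0 h gained a call in RelA(TA2) cells (2.21) and RelA(wt) cells (2.36), and the call for Nab2 in RelA(TA2) cells at 2 h against 0 h was lost.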
